A study of Mus musculus with 2 samples.

Results

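The genes examined here are the 29 genes of cholesterol and fatty acid synthesis that sterol regulatory element-binding proteins (SREBPs) control in mouse cells: 18 enzymes of the route from acetyl-CoA to cholesterol, 6 enzymes of fatty acid synthesis, 4 genes of the SREBP system itself and the sterol carrier gene Stard4. They were chosen by name, and a probe was assigned to a gene through its RefSeq accession. Of 39417 probes on the arrays, 40 belong to these 29 genes, out of 20649 genes that could be named in all. The cells were MIN6, an insulinoma line from a transgenic C57Bl/6 mouse that secretes insulin in response to glucose, used at passages 15 to 20. Cells of 1 condition received a lentivirus with mouse FTO and a green fluorescent marker (PLVX-IRES-ZsGreen-mFTO), and cells of the other received the lentivirus with the marker alone (PLVX-IRES-ZsGreen), which is called control. Both were grown in the same medium with 15% serum, and fluorescence was checked 48 h after transduction. FTO is a demethylase of RNA, and the comparison asks how its overexpression changes gene expression in beta cells.

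With 1 array per condition, none of the differences below could be checked against a second culture, and no p-value or error between cultures can be given. The error that is given is the spot error, which combines the error estimates that the image software made for the spot on each array. It does not contain the variation between cultures. At the brightest probe of each gene examined it was close to 0.20 whatever the signal. A difference over the spot error is thus a difference over a nearly fixed limit. As in any measurement of bulk RNA, fewer cells of a type cannot be told apart from less RNA per cell. Wherever signals are given in pairs, the first is from the array labelled FTO and the second from that labelled control. The single probe of Fto gave signals of 7301 and 5179, and after normalization a log2 difference of 0.06, which is under its spot error of 0.20. Whether this probe lies in the coding sequence that the vector carries was not determined. Every direction below therefore rests on the labels. All 10 beta cell markers examined, Ins1, Ins2 and Pdx1 among them, were well above background on both arrays. Gcg, the alpha cell hormone gene, was so too, with a log2 difference of 0.01. Most probes passed this limit, 82.0% for FTO and 84.9% for control, so passing it does not set beta cells apart. Of 6 exocrine pancreas markers, 5 passed it on both arrays, as did 5 of 6 fibroblast, endothelium and leukocyte markers with a probe.

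Cholesterol is built from acetyl-CoA through mevalonate, isoprenoids, squalene and lanosterol. SREBP2, encoded by Srebf2, mainly drives these enzymes, and SREBP1, encoded by Srebf1, mainly drives fatty acid synthesis. When membrane sterols are high, the INSIG proteins hold the escort protein SCAP and its bound SREBP in the endoplasmic reticulum. When sterols fall, SCAP carries the SREBP to the Golgi, where it is cleaved, and the released part enters the nucleus and binds sterol regulatory elements in promoters. Insig1 is itself an SREBP target, which closes a feedback loop. In beta cells, cholesterol is a component of insulin granule membranes, and cholesterol content and fatty acid supply are known to bear on secretion.

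SREBPs act together with the factor NF-Y, and promoters are shown with the motifs of these factors. The genes were listed as controlled by SREBPs, so their shares of motifs are a description and not independent of that choice. The RefSeq promoter table of the mouse build GRCm38.p6, which covers 250 bases before and 50 bases after each start site, holds 23 of the 29 genes. Motifs were searched on both strands. The letters TCACNCCAC, a form of the sterol regulatory element, were in a promoter of 1 of the 23 genes (4.35%), Hmgcs1, and in promoters of 1.44% of all genes in the table and 1.33% of those with a bright probe (mean log2 signal of at least 8) on these arrays. The E-box CACGTG, which SREBP1 can also bind, was found for 5 of the 23 genes (21.7%), namely Dhcr7, Hsd17b7, Insig1, Sc5d and Scap, against 8.09% of all genes and 11.8% of genes with a bright probe. The NF-Y box CCAAT was found for 19 of the 23 genes (82.6%), against 41.1% of all genes and 43.8% of genes with a bright probe. It was most frequent in the promoters of Mvk, with 5 matches, and of Hmgcs1 and Nsdhl, with 4 each. A match is a run of letters and is not known to be bound here, and a promoter without a match may hold another form of the element. The 250 bases before the start site are printed for the gene with the sterol element (Hmgcs1), for the gene with the lowest difference (Insig1), for the gene with the highest difference (Cyp51) and for the fatty acid synthase gene Fasn. Capitals mark the motifs on either strand, so that ATTGG stands for CCAAT of the opposite strand.
Hmgcs1 (chr13:119690101-119690350, plus strand): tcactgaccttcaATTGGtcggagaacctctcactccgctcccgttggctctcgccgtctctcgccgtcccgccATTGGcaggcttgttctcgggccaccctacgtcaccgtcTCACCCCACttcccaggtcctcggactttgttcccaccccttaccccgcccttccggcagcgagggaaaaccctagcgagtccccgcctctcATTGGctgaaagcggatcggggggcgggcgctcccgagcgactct
Insig1 (chr5:28071162-28071411, plus strand): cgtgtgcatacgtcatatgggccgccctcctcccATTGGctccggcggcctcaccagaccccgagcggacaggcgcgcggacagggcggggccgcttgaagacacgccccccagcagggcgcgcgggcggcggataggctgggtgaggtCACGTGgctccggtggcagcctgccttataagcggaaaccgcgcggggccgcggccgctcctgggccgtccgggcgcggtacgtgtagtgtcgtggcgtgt
Cyp51 (chr5:4104698-4104947, minus strand): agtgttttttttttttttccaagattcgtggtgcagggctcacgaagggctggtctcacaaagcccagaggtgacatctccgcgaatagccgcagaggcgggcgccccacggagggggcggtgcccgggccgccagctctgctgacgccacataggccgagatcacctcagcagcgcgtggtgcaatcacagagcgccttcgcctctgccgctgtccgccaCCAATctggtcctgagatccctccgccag
Fasn (chr11:120824548-120824797, minus strand): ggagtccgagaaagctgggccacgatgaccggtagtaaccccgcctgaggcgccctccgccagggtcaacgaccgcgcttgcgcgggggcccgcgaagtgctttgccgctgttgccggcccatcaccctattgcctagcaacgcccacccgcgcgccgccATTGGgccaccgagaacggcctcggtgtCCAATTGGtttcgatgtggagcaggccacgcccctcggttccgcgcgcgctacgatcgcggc
The sterol element of Hmgcs1 begins 137 bases before the start site, between NF-Y boxes at 176 and 45 bases. The promoter of Insig1 has an E-box at 101 bases and 1 NF-Y box at 216 bases. Cyp51 has a single NF-Y box at 29 bases, and Fasn has 3, of which those at 62 and 59 bases overlap.

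All 40 probes were well above background on both arrays, and no spot was flagged as saturated, so each difference was measured on both sides. At the brightest probe of Acly the signal ratio, FTO over control, was 1.02, against 1.35 at its other probe. It was 1.20 for Scd2 and 1.40 for Sqle, which were also very bright. Whether the response was compressed at such signals was not tested. For each gene the brightest probe stands for the gene, and it had a mean log2 signal of at least 8 for all 29 genes. Signals are given first as the image software wrote them, with background removed and without normalization between the arrays. The array labelled FTO was brighter as a whole, with a median signal over its spots of 292 against 237, so equal expression shows as a higher first signal of a pair. Differences are log2 differences, FTO minus control, after quantile normalization. The signal of a probe also depends on its sequence, so levels of different genes are not compared.

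**Figure D1:**
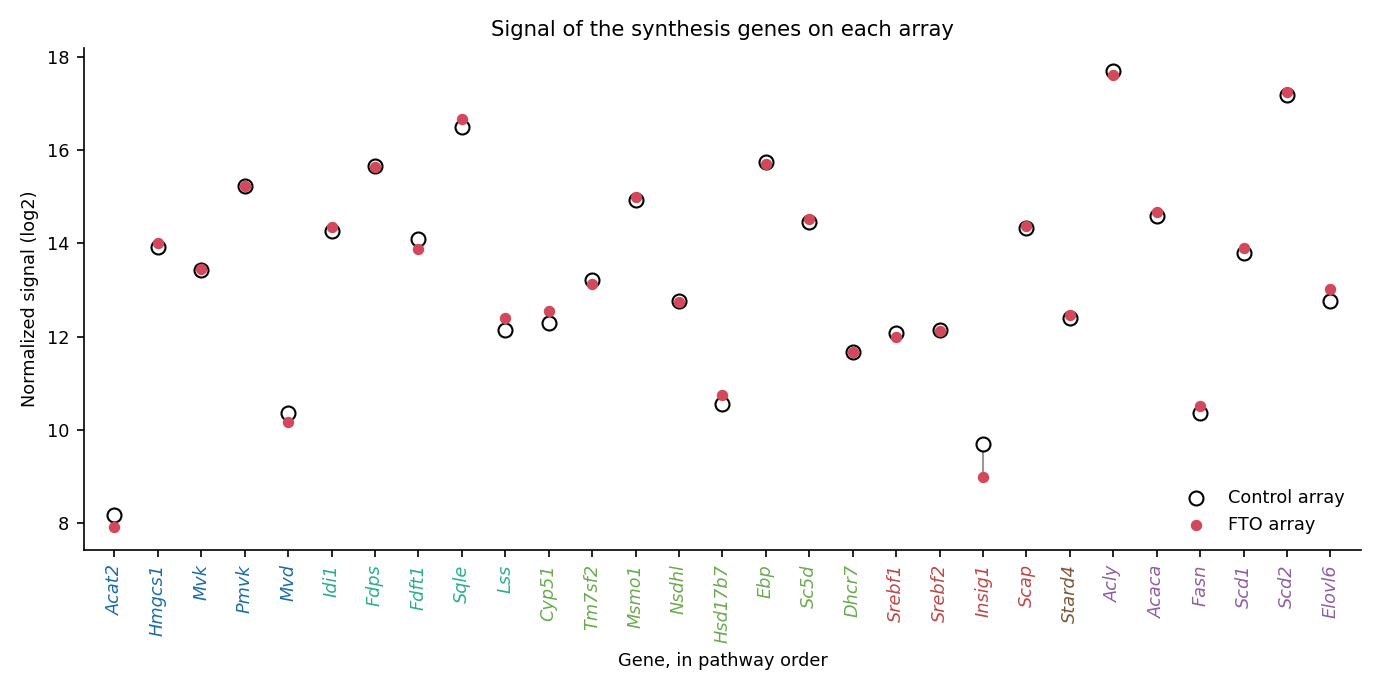
Normalized log2 signal (vertical axis) of the brightest probe of each of the 29 genes, in pathway order (horizontal axis), on the array labelled FTO (filled) and the array labelled control (open), 1 array each. The circles lie on or beside each other for 28 genes and are clearly apart at Insig1, with 9.00 against 9.70. Heights of different genes cannot be compared.

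Signals of the pathway were nearly the same on both arrays. Over the 29 genes the median log2 difference was 0.04, against 0.01 over the 18509 named genes tested and 0.01 over the 12151 of them with a mean log2 signal of at least 8, which are called bright. The differences ran from -0.70 (Insig1) to 0.27 (Cyp51). Above 0 lay 17 members (58.6%), against 53.1% of the bright named genes and 51.6% of all named genes tested. Below 0 lay 12 members, against 46.7% of the bright and 48.3% of all. No member differed by more than 2-fold, against 0.280% of the bright named genes and 2.69% of all.

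A smaller limit of 0.32 on the log2 scale was also used, which was set with earlier results of these arrays known, and 28 of the 29 members lay within it. Of the bright named genes 5.26% lay outside this limit, and of all named genes tested 16.8%. No member was higher by more than this, against 2.35% of the bright named genes. Lower was 1 of the 29 members, Insig1, against 2.91% of the bright named genes, so this count is near the background. The difference was larger than its spot error in 6 members (20.7%), against 18.0% of the bright named genes and 28.6% of all, so the members' share is near the background. Of these 6, Acat2 and Insig1 were lower on the array labelled FTO, Lss, Cyp51 and Elovl6 were higher, and Fdft1 had probes on opposite sides of 0.

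The entry to the pathway holds 5 of the enzymes, from acetyl-CoA to the mevalonate phosphates. Acat2, the cytosolic thiolase that joins acetyl-CoA units, gave signals of 266 and 261, a log2 difference of -0.25. It was the lowest of the 18 cholesterol enzymes. Hmgcs1, which makes HMG-CoA, gave signals of 19107 and 13364, a log2 difference of 0.07. This is the gene with the sterol element printed above, and its difference is smaller than its spot error. Mevalonate is then phosphorylated by the kinases of Mvk and Pmvk. Mvk gave signals of 12968 and 9530, a log2 difference of 0.01, and -0.01 at its second probe with signals of 2509 and 1925. Pmvk gave signals of 44568 and 33223, a log2 difference of -0.005, and 0.03 at its second probe with signals of 23383 and 16900. Both kinases were thus equal on the arrays to within 0.03 at each of their probes. Mvd, which decarboxylates the product to isopentenyl pyrophosphate, gave signals of 1313 and 1144, a log2 difference of -0.19. Of these 5 genes, 2 lay above 0 and 3 below, with a median of -0.005.

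The next 5 enzymes carry isoprenoids to lanosterol. Idi1, the isomerase of isopentenyl pyrophosphate, gave signals of 24392 and 16865, a log2 difference of 0.09. Fdps, which makes farnesyl pyrophosphate, gave signals of 58275 and 45022, a log2 difference of -0.03. Neither differed by as much as the spot error. Fdft1, squalene synthase, gave signals of 17669 and 15118 at its brightest probe, a log2 difference of -0.22. Its other probe, with signals of only 82.6 and 42.2, had a log2 difference of 0.82. The probes of Fdft1 thus lay on opposite sides of 0, and no direction can be given for this gene. Sqle, the squalene epoxidase and a control point of the pathway, gave signals of 116549 and 83192, a log2 difference of 0.17. Lss, which closes the rings to lanosterol, gave signals of 6243 and 3950, a log2 difference of 0.24. Of these 5 genes, 3 lay above 0 and 2 below, with a median of 0.09.

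The last 8 enzymes turn lanosterol into cholesterol. Cyp51, the lanosterol demethylase, gave signals of 6956 and 4307, a log2 difference of 0.27 or a 1.20-fold higher signal on the array labelled FTO. It was the highest of all members. Msmo1, the methylsterol monooxygenase, gave signals of 37915 and 26787, a log2 difference of 0.06. Hsd17b7, a sterol ketoreductase, gave signals of 1968 and 1317, a log2 difference of 0.18, and 0.23 at its second probe with signals of 229 and 164. Its probes thus lay on the same side of 0. The sterol reductase gene Tm7sf2 gave signals of 10483 and 8166, a log2 difference of -0.07, and -0.12 at its second probe with signals of 2255 and 1881. The remaining genes of this stretch lay closer to 0 at their brightest probes. Nsdhl, a sterol dehydrogenase, gave signals of 7982 and 5961, a log2 difference of -0.02, and 0.13 at a second probe. Ebp, the sterol isomerase, gave signals of 61492 and 47728, a log2 difference of -0.04. Sc5d, the sterol desaturase, gave signals of 27386 and 19420, a log2 difference of 0.05. Dhcr7, which reduces dehydrocholesterol to cholesterol, gave signals of 3789 and 2823, a log2 difference of 0.01, so that this step was equal on both arrays to well within the spot error. Over the 8 genes the median was 0.03, with 5 above 0 and 3 below.

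**Figure D2:**
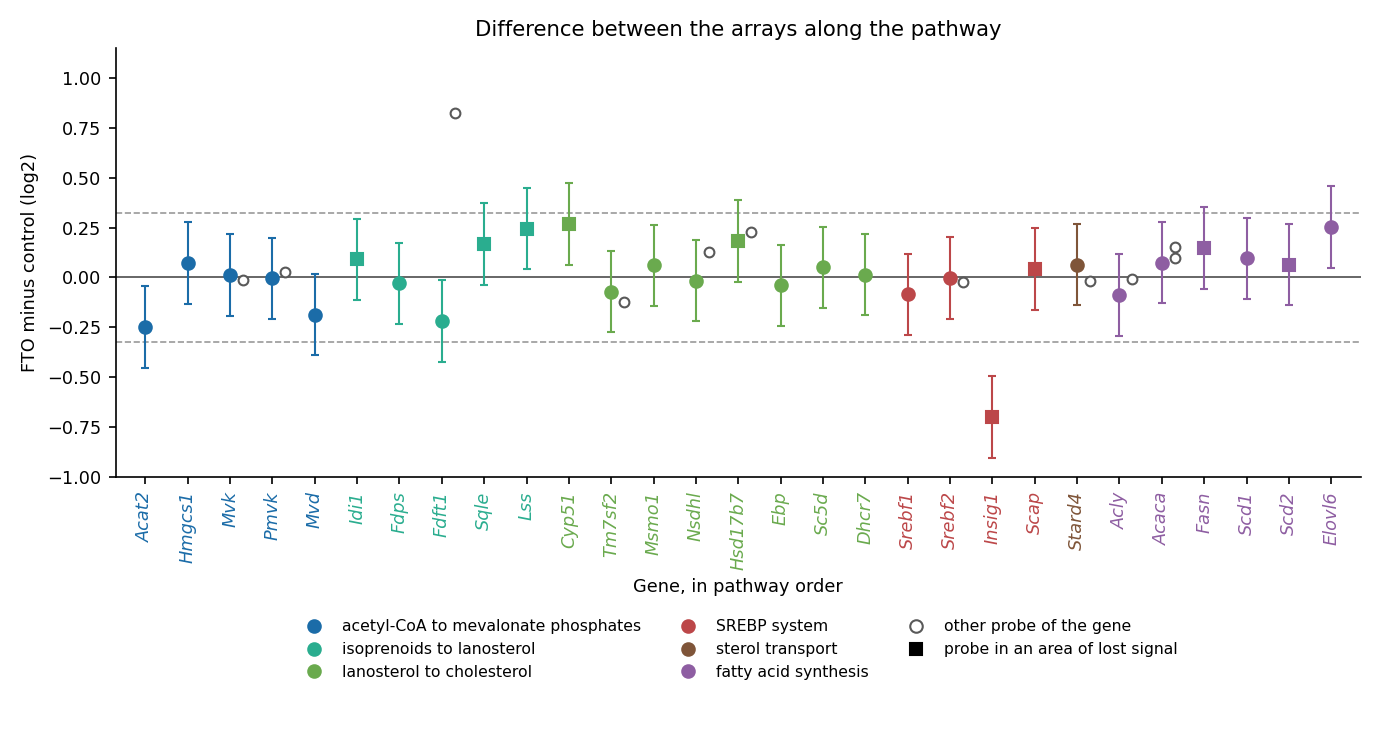
Log2 difference, FTO minus control (vertical axis), of the brightest probe of each gene in pathway order (horizontal axis, coloured by role), with bars for the spot error of both arrays, and open circles for the other probes of a gene. Squares mark probes in the areas of the array labelled FTO that had lost signal, and broken lines mark a log2 difference of 0.32 in each direction. Insig1 at -0.70 and the dim second probe of Fdft1 at 0.82 lie outside the broken lines, and all other points lie between them.

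In the SREBP system, the transcription factors and their escort had nearly equal signals, and Insig1 stood apart. Srebf1 gave signals of 4720 and 3734, a log2 difference of -0.08. Srebf2 gave signals of 5184 and 3898, a log2 difference of -0.003, and -0.02 at a second probe with signals of 1325 and 1035. Scap gave signals of 24594 and 17605, a log2 difference of 0.04. None of these 3 genes exceeded its spot error. Insig1 (NM_153526), with a single probe, gave signals of 577 and 726 and was the only member whose signal was the lower one on the array labelled FTO before normalization. After normalization its log2 signals were 9.00 and 9.70, so its log2 difference was -0.70 against a spot error of 0.20, a 1.62-fold lower signal on the array labelled FTO. Among the bright named genes, 0.823% were lower by over 1.5-fold and 0.222% higher, and 0.560% lay at or below the difference of Insig1. Its paralog Insig2, which SREBPs do not induce in the same way and which was looked up after the value of Insig1 had been seen, had log2 differences of 0.11 and 0.07 at 2 probes.

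The place of the Insig1 probe on the array is to be read beside this value. The surface was divided into 35 blocks, and in 6 blocks of the array labelled FTO at least 15% of the repeated spots of dim to middling probes lay well below the median of their own probe. The Insig1 probe lies in such a block. Of 123 other probes in that block with a log2 signal within 1 of it, 6.50% were lower by over 1.5-fold, and their median difference was 0.04. Of the 100 bright named genes lower by over 1.5-fold, 44.0% lay in the 6 blocks, which held 18.9% of the bright named genes. With the median of its block subtracted, Insig1 had a log2 difference of -0.74. Without the spots of these blocks there is no value for Insig1, which has no second probe on the array, and the part of the array surface in its difference was not tested.

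The same blocks held the brightest probes of 8 other members: Idi1, Sqle, Lss, Cyp51, Hsd17b7, Scap, Fasn and Scd2. All 8 lay above 0, whereas Insig1 in the same blocks lay below. The 9 members in these blocks, Insig1 included, had a median log2 difference of 0.15, and the 20 members elsewhere had a median of -0.004 with 9 above 0 and 11 below. Bright probes printed once had a median of 0.03 in these blocks and 0.0008 elsewhere. Above 0 lay 1978 of 3336 such probes in these blocks and 7945 of 15843 elsewhere. Of the members above their spot error, Lss and Cyp51 thus lay in this area of the array, whereas Acat2, Fdft1 and Elovl6 lay outside it. The second probe of Hsd17b7, with its difference of 0.23, lay outside it too. The part of the array surface in these small differences was not tested.

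Stard4, a carrier that moves cholesterol between membranes, gave signals of 6502 and 4670, a log2 difference of 0.06. A second probe with signals of 1141 and 895 had a difference of -0.02, so the gene was equal on both arrays to within the spot error.

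Of the 6 fatty acid genes, 5 lay above 0, with a median log2 difference of 0.08, and all 6 lay within 0.32 of 0. Acly, which splits citrate to cytosolic acetyl-CoA, gave signals of 208548 and 205340 at its brightest probe, a log2 difference of -0.09, and -0.008 at its other probe with signals of 13350 and 9915. Scaling by the 75th percentile in place of quantile normalization gave -0.40 for the brightest probe, so the size of the difference of Acly depends on the normalization. Acaca, the acetyl-CoA carboxylase that makes malonyl-CoA, gave signals of 30305 and 21221, a log2 difference of 0.07, and its other 2 probes had differences of 0.15 and 0.10. Fasn, which builds palmitate, gave signals of 1660 and 1146, a log2 difference of 0.15. Elovl6, which lengthens palmitate to stearate, gave signals of 9645 and 6005, a log2 difference of 0.25, the highest of this group and the only one above its spot error. The desaturases of Scd1 and Scd2 place the double bond of oleate. Scd1 gave signals of 17846 and 12214, a log2 difference of 0.10. Scd2 gave signals of 165341 and 138016, a log2 difference of 0.06, which scaling by the 75th percentile turned to -0.16.

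Repeat measurements within the arrays give a scale for the spread between spots of 1 array. This spread does not contain the variation between arrays or between cultures. The 240 probes printed 10 times with a mean log2 signal of at least 8 had a median SD of 0.06 between their spots on the array labelled FTO, and 238 such probes had 0.05 on the other array. Of the 29 genes, 10 had more than 1 probe, which gave 11 pairs of the brightest probe with another. Apart from Fdft1, the probes of a pair differed by at most 0.15, and by less than their combined spot error in all 10 pairs. That error was close to 0.29 or larger, above each single difference in these 10 pairs. Staying under it was thus nearly assured. In 6 of the 11 pairs both probes lay on the same side of 0. The central 95% of the bright named genes lay between -0.35 and 0.32, and Insig1 was the only member outside this range.

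**Figure D3:**
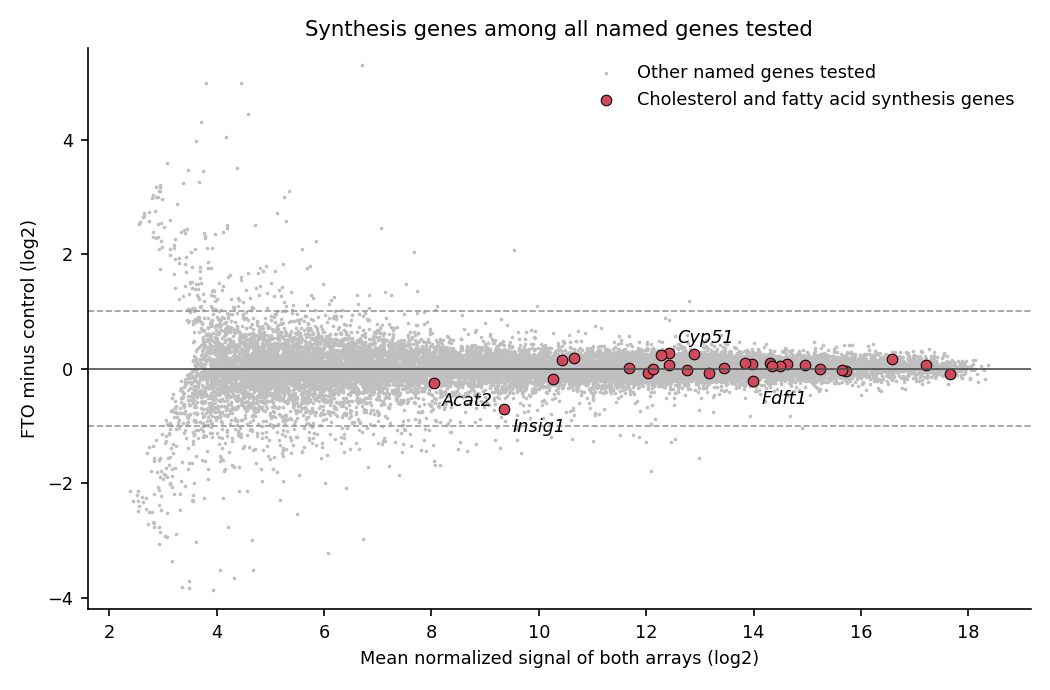
Log2 difference, FTO minus control (vertical axis), against the mean normalized log2 signal of both arrays (horizontal axis), for the 18509 named genes tested (grey) and the 29 synthesis genes (red), with broken lines at 2-fold. The spread of all genes narrows as the signal rises, and the synthesis genes lie in its bright and narrow part, with Insig1 at its lower edge.

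Other lipid genes, of synthesis but also of oxidation, storage and efflux, were taken from 8 lists. These lists held 118 genes that are not among the 29, and 115 were tested. The median log2 difference over these was 0.01, with 64 above 0 and 51 below. Higher by over 0.32 was 1 gene, against 7.80% of all named genes tested and 2.35% of the bright ones. Lower were 3 genes, against 9.02% of all and 2.91% of the bright ones. In other cholesterol synthesis genes, all 4 tested lay below 0, with a median of -0.08. The highest of them, the sterol-regulated membrane protein gene Tmem97, had a log2 difference of -0.01. The 12 genes of the isoprenoid branch had a median of 0.03 and ran from -0.15 (Pdss1) to 0.23 (Icmt).

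In the list of SREBP processing and turnover, 11 of 12 genes lay within 0.32 of 0. The exception was Mbtps2, the site-2 protease that releases SREBPs in the Golgi, which gave signals of 857 and 835, a log2 difference of -0.34 against a spot error of 0.20, a 1.26-fold lower signal on the array labelled FTO. A second probe had a difference of -0.28. The first of these probes lies in a block where the array labelled control had lost signal, and the second in no such block of either array. The 14 genes of sterol uptake and traffic all lay within 0.32 of 0, with a median of 0.01, 7 above 0 and 7 below. The highest of them was the lipoprotein receptor gene Lrp8 at 0.24.

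Over all 144 lipid genes tested, members included, 4 were past 1.5-fold (1 higher, 3 lower), against 2.80% higher and 4.15% lower of all named genes tested, and 0.222% higher and 0.823% lower of the bright ones. Besides Insig1 these were Soat2, Ppara and Olah. Soat2, which esterifies cholesterol, gave signals of 499 and 647, a log2 difference of -0.73. Ppara, a receptor that drives fatty acid oxidation, gave signals of 244 and 424 at its brightest probe, a log2 difference of -1.10. Its other 2 probes, each well above background on 1 array only, had differences of -0.003 and 0.78. Olah, a thioesterase that ends fatty acid synthesis early, gave dim signals of 28.0 and 14.1, a log2 difference of 0.95. All 4 probes lie in the blocks of lost signal on the array labelled FTO, which held 34 of the 144 genes (23.6%). The part of the array surface in these 4 differences was not tested. Around Soat2, the 11 genes tested for sterol efflux, esterification and the LXR receptors had a median of -0.05, with 4 above 0 and 7 below. The 26 other genes of fatty acid synthesis and supply, Olah among them, had a median of 0.08, with 18 above 0 and 8 below. In fatty acid oxidation, 20 of the 21 genes tested lay within 0.32 of 0, with a median of 0.01. The 15 genes of glycerolipid synthesis and lipid droplets had a median of -0.05 and ran from -0.23 (Dgat1) to 0.17 (Plin3).

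**Figure D4:**
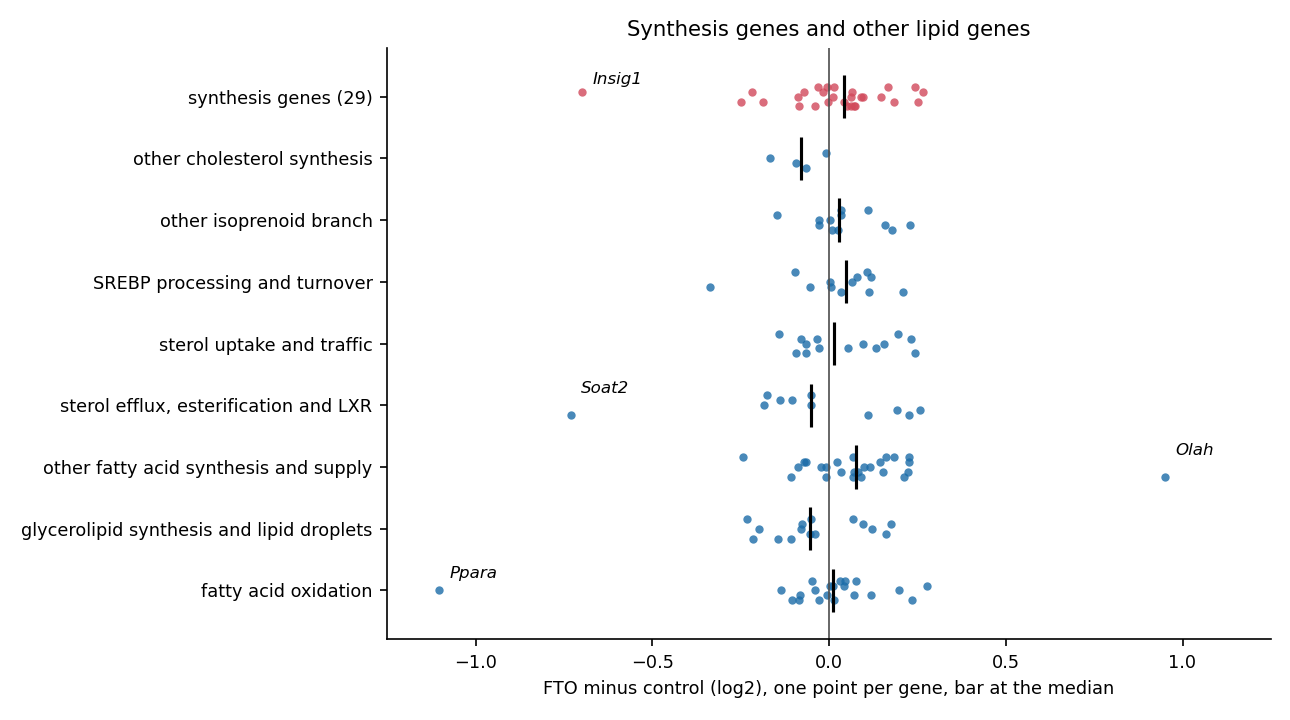
Log2 difference, FTO minus control (horizontal axis), of each gene tested, by list (vertical axis), with a bar at the median of the list. The medians of the lists lie between -0.08 and 0.08, and the 4 genes past 1.5-fold stand away from their lists.

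**Figure D5:**
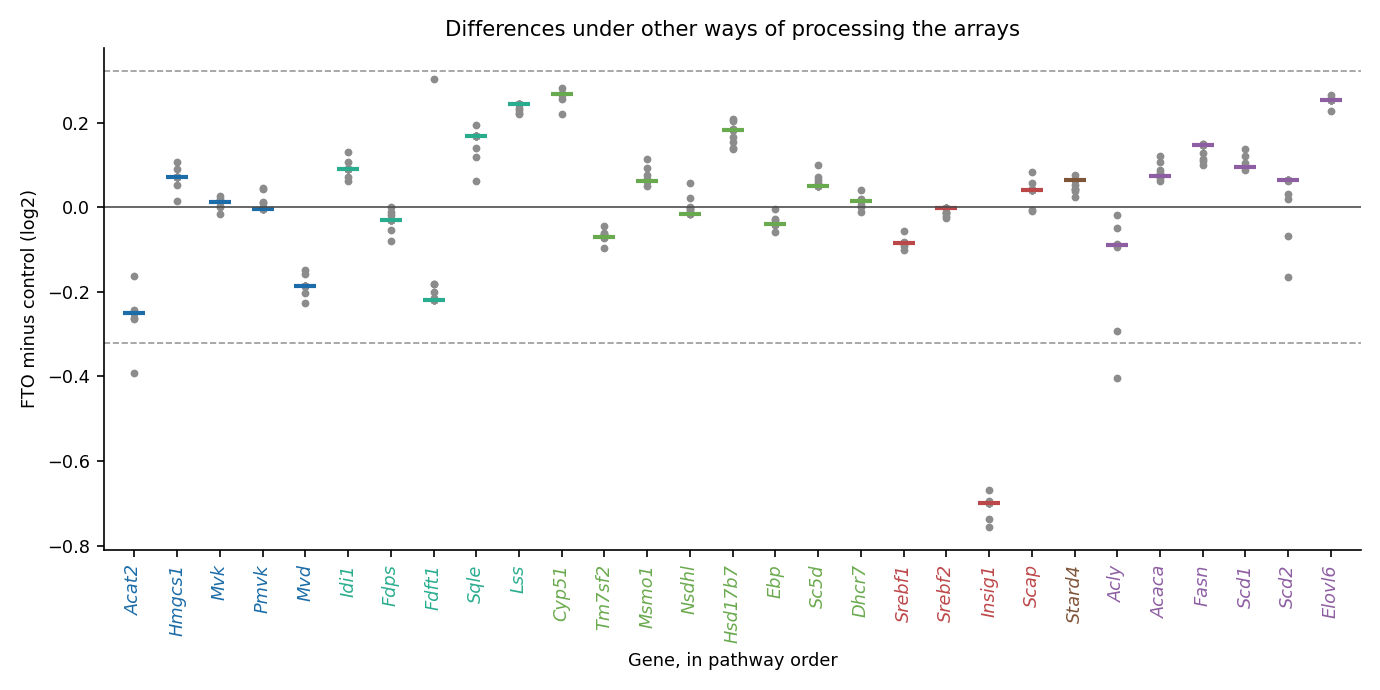
Log2 difference, FTO minus control (vertical axis), of each synthesis gene (horizontal axis) as reported (coloured bar) and under up to 12 other ways of processing the arrays (grey points), with broken lines at 0.32 in each direction. Insig1 lies between -0.76 and -0.67 throughout, and only Acat2 and Acly have another point outside the broken lines.

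Most members kept their sign under the other ways of processing the arrays, but several of these could barely move a probe printed once. Of the 29 genes, 21 kept their sign under every alternative that gave a value, 13 of them above 0 and 8 below. These include values close to 0, such as Srebf2 at -0.003, so a kept sign is no further measurement of direction. Insig1 was past 0.32 under all 11 alternatives that gave a value for it, though several of these could barely move its single spot. Those that could gave -0.76 with scaling by the 75th percentile, -0.69 with cyclic loess and -0.67 with another background correction. Subtracting the median of its block gave -0.74, which cannot correct a loss at single spots. Acat2 passed this limit with scaling by the 75th percentile, at -0.39, as did Acly. The deposited processed table, quantile normalized from the same arrays, listed all 40 probes, and from it 1 member was again past the limit.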

How the data were processed

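RNA of MIN6 cells was labelled with Cy3 and hybridized to one-color Agilent whole mouse genome arrays, 1 for FTO and 1 for control. Both lay on the same slide and were scanned together. The deposited spot tables hold the intensity of each spot from Agilent Feature Extraction 11.0.1.1, after removal of background and of a trend over the surface and before any normalization between arrays. The deposited processed table holds log2 values of 33870 probes, quantile normalized by the authors, and the rule that selected them is not given in the sources used here.

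Control spots and outlier spots (148 and 141) were left out. The log2 intensities of the spots of each probe were averaged, and 39417 probes were quantile normalized (limma 3.58.1, R 4.3.3). Further steps used Python 3.11.15, pandas 2.3.3, numpy 2.4.6 and matplotlib 3.10.9. RefSeq accessions, without version, were named from the NCBI annotation of GRCm38.p6, which gave names to 27218 probes. No probe coordinates are printed, since the array was designed on an older assembly. Genes entered through any probe well above background on 1 or both arrays, with the brightest such probe standing for the gene. Blocks measured 76 rows by 17 columns. In each, spots of 79 repeated probes were examined, whose median log2 signal on the array labelled control lay from 4.5 to 8. A spot was counted as low where it fell short of the median of its probe on the same array by over 0.5. The block size and limit had been set after differences on these arrays were known.

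No test across samples was possible with 1 array per condition, and this number limits the precision of every value. Every member is named, and of each other list the genes past 1.5-fold or, where there were none, the highest and the lowest, some of which are not reported here. Values were recomputed with other scalings, background correction, filters, spot summaries, floors and probe choices, without the blocks of lost signal, and from the processed table. The steps were tested on simulated data with known changes. The members, lists and measures were chosen with earlier results of these data known.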

Additional observations from a re-analysis of the deposited data

How the results depend on the processing

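The results were recomputed under 11 alternatives, and under 1 more, the subtraction of the median of the block, that was chosen after the data had been seen. No member passed 2-fold under any of the 12, and none was higher by over 0.32 on the log2 scale. The median log2 difference of all members lay between -0.0007, without the blocks of lost signal, and 0.05, with the mean over the probes of a gene. That of the cholesterol enzymes lay between -0.002 and 0.05 and that of the fatty acid genes between 0.07 and 0.12. The number of members lower by over 0.32 was 3 with scaling by the 75th percentile (Insig1, Acat2 and Acly) and 0 without the blocks of lost signal, where 21 members had a value and Insig1 had none because its only probe lies in such a block. It was 1 under all other alternatives, several of which could barely move probes printed once and well above background. Without these blocks 10 members lay above 0 and 11 below. Acly moved by more than its spot error with scaling by the 75th percentile, to -0.40, and with cyclic loess, to -0.29, as did Scd2 with the scaling, to -0.16, and Fdft1 with the mean over its probes, to 0.30, where its dim second probe counts as much as the bright one. The cause of the moves of Acly and Scd2 was not tested. Scaling by the 75th percentile also moved the median of all named genes tested to -0.06. No paired analysis was possible because each condition has 1 array. For the same reason no replicate could be left out.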
